A study of Mus musculus with 18 samples.

Results

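The 9 RNAs described here are structural noncoding RNAs taken from a gene table by their symbols. They are the 7SL RNA genes Rn7s1 and Rn7s2, the 7SK gene Rn7sk, the RNase MRP RNA Rmrp, the RNase P RNA Rpph1, the telomerase RNA Terc, the long noncoding RNA Gm26917, and the nuclear long noncoding RNAs Malat1 and Neat1. The table lists 45706 genes, and all 9 RNAs were among the 16619 genes that passed the filter on low counts. Total RNA was sequenced from mouse induced pluripotent stem cells (iPSCs) that were Hmga2 wt, all from the line labelled wt #1, or that came from the Hmga2 KO clones #1 and #2 (KO#1 and KO#2). Hmga2 encodes a chromatin protein of the high mobility group, and the study asked how its loss acts when iPSCs become epiblast-like cells (EpiLCs). At 0 h the cells were undifferentiated iPSCs, a type of cell expanded here over inactivated fibroblast feeders with leukaemia inhibitory factor and 2 kinase inhibitors (2i). At 24 h they had been moved to a feeder-free Geltrex matrix and medium with Activin A and bFGF to induce EpiLCs. Each of the 6 groups had 3 libraries numbered as biological replicates, 18 in all. Wt cells were 1 line and KO cells 2 clones, so a difference between wt and a KO clone cannot be told apart from a difference between lines.

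7SL RNA is the scaffold of the signal recognition particle, which binds ribosomes that make secreted and membrane proteins and brings them to the endoplasmic reticulum. 7SK RNA holds the kinase P-TEFb inactive in a particle with Larp7, Mepce and Hexim1, RNase P cuts the leader from precursor tRNAs, RNase MRP cuts precursor ribosomal RNA, and Terc carries the template that telomerase copies into telomere repeats. 7SL, 7SK, RNase P RNA and RNase MRP RNA are made by RNA polymerase III, whereas Terc, Malat1 and Neat1 are made by RNA polymerase II. Malat1 gathers in nuclear speckles, and Neat1 is the scaffold of paraspeckles.

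The annotated RNAs of Rn7s1 and Rn7s2, both on chromosome 12, are identical in 300 of 300 bases, so that a read inside them cannot name its gene.

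The start of 7SK RNA and the template region of Terc are shown because they hold the letters through which these RNAs are known to work. Sequences are those of GENCODE M21 transcripts on GRCm38, printed 5′ to 3′ in DNA letters. The start of the 331 bases of Rn7sk, at chr9:78175526-78175633 on the minus strand, hold GATC (in capitals) at 3 places in the stem that Hexim1 is known to bind. In a start of the same length in 138239 annotated transcripts, read on the transcript strand, GATC occurred at least 1 time in 25.1% and at least 3 times in 0.411%. Bases 3 to 62 of the 423 bases of Terc, at chr3:96414798-96414857 on the minus strand, hold the template CTAACCCT (in capitals) from base 29. These letters occurred in the same window of 0.0580% of 141412 transcripts.
Rn7sk: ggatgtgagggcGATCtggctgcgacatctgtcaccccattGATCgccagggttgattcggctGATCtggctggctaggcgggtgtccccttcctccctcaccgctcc
Terc: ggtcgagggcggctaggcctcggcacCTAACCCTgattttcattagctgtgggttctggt

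The remaining genes lie on GRCm38 at chr4:43492788-43493058 (Rmrp, 271 bases), chr14:50807449-50807767 (Rpph1, 319 bases), chr17:39843013-39846341 (Gm26917, 3329 bases), chr19:5795690-5802672 (Malat1, 6983 bases) and chr19:5824708-5845478 (Neat1, 20771 bases). Gm26917 is on the plus strand and the other 4 are on the minus strand. Some of these genes share sequence with annotated neighbours or copies. Of all windows of 75 bases, the length of a read, 65.0% in Rn7sk also occurred in at least 1 of 4 annotated copies, whose counts over all libraries were 1016 to 7428 against 9283015 for Rn7sk. In Rpph1 64.9% also occurred in Ccnb1ip1 (690 counts), which overlaps it on the same strand. In Rmrp all windows also occurred in at least 1 of 2 overlapping genes. These were Ccdc107 (3912 counts) on the opposite strand and another annotated gene named Rmrp on the same strand, which was not counted. Malat1 shared 5.66% and Neat1 0.783% of windows with other genes, and Gm26917 and Terc shared none. Whether strand was used in counting is not given in the sources used here.

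Libraries held 3466436 (wt 0 h replicate 1) to 23872837 counts. At 0 h they held up to 10599720 in wt and 14613617 in KO#1, and at 24 h at least 19675403 and 18640956. Depth was thus higher at 24 h without overlap in these 2 lines. KO#2 libraries held 14495941 to 16995756 counts at 0 h and 13448569 to 17823888 at 24 h. Levels are given as CPM, the count of a gene divided by its library size times a TMM factor that adjusts for RNA composition. On this scale 3 counts corresponded to 0.116 to 0.983 CPM. Differences are log2 fold changes ± SE from edgeR's quasi-likelihood test fitted to all 18 libraries, with Benjamini-Hochberg adjustment over 16619 genes, and a gene was called at an adjusted p under 0.05. Hmga2 stood at 13.3 to 22.3 CPM in wt, 1.75 to 10.2 in KO#1 and 1.84 to 8.24 in KO#2 libraries at 0 h, and at 5.51 to 5.93, 0.871 to 3.67 and 3.01 to 10.4 CPM at 24 h. Hmga2 was called lower in KO#2 than in wt at 0 h (-1.90 ± 0.62, adjusted p = 0.023) and was not called in KO#1 against wt at 0 h (-1.71 ± 0.63, adjusted p = 0.124) or 24 h (-1.36 ± 0.64, adjusted p = 0.22). At 24 h the difference between KO#2 and wt did not pass (adjusted p = 0.966) and 1 KO#2 library lay above every wt library, so that Hmga2 RNA went against the KO label there, and KO#2 below stands for the libraries labelled KO#2. Counts over the whole gene do not show which part of it is left. The 4 EpiLC markers (Fgf5, Otx2, Dnmt3b and Pou3f1) rose at 24 h in each line, with summed levels going from 81.7 ± 8.74 to 997 ± 350 CPM in wt, 94.0 ± 17.1 to 616 ± 261 in KO#1 and 84.8 ± 12.2 to 591 ± 214 in KO#2 (SD, n = 3). Of 5 pluripotent cell markers, 3 (Nanog, Esrrb and Sox2) fell in each line, where 50.7% of all genes were called in wt, 40.8% in KO#1 and 26% in KO#2. At least 7 of 8 fibroblast markers (the collagen genes Col1a1, Col1a2 and Col3a1, and Postn, Lox, Dcn, Acta2 and Thy1) had counts in every library. Their summed level was 110 to 390 CPM in wt, 183 to 514 in KO#1 and 331 to 897 in KO#2 at 0 h, and 19.0 to 34.5, 38.7 to 51.8 and 70.9 to 219 CPM at 24 h. In such bulk RNA, fewer cells of a type and less RNA per cell cannot be told apart.

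The 9 RNAs together took between 10.4% and 50.05% of all counts in a library. In wt their share was 40.1%, 26.8% and 27.8% in replicates 1 to 3 at 0 h and 33.3%, 50.05% and 30.7% at 24 h. KO#1 libraries held 25.7%, 30.8% and 17.3% at 0 h, then 40.9%, 49.8% and 31.1% at 24 h. KO#2 libraries held 18.2%, 15.6% and 15.2% at 0 h, then 12.6%, 12.1% and 10.4% at 24 h. The KO#2 libraries lay below all wt libraries at both times and below all KO#1 libraries at 24 h, and the 24 h and 0 h libraries did not overlap in KO#1 (higher at 24 h) or in KO#2 (lower at 24 h). The difference between KO#2 and wt was -15.3 percentage points at 0 h and -26.3 points at 24 h (two-sided exact permutation test, p = 0.1 for each, the smallest that 3 against 3 libraries allow, and p = 0.18 after adjustment over 9 comparisons). Between KO#1 and wt it was -7.01 points at 0 h (exact p = 0.4) and 2.60 points at 24 h (exact p = 0.8), within the spread of replicates. The first difference was -10.1 to -2.74 points with 1 library left out. The second turned to -1.05 points without wt 24 h replicate 3 and to -1.99 points without KO#1 24 h replicate 2. From 0 h to 24 h the share differed by 6.44 points in wt (exact p = 0.5; 0.422 points without wt 24 h replicate 2 and 10.7 points without wt 0 h replicate 1), 16.0 points in KO#1 and -4.63 points in KO#2 (exact p = 0.1 for each).

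**Figure D1:**
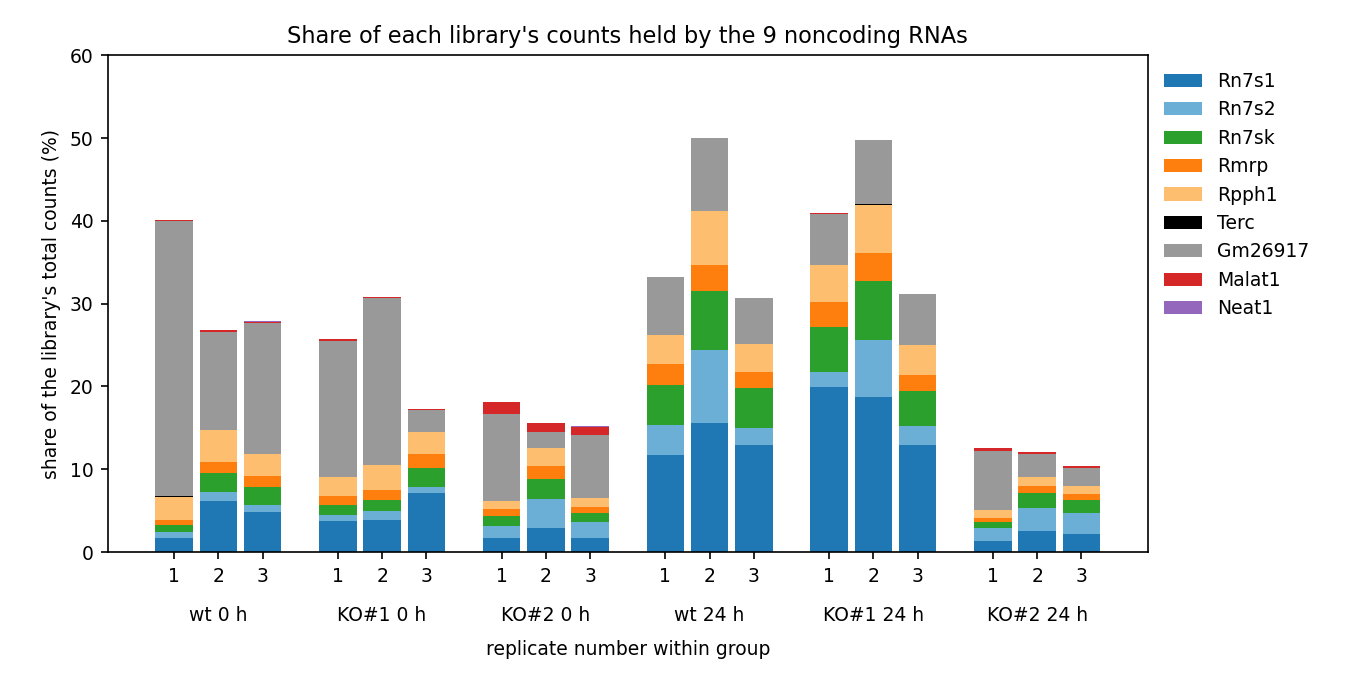
Share of all counts (%) taken by each of the 9 RNAs, as stacked bars, in each of the 18 libraries. The KO#2 bars at 24 h reach 10.4% to 12.6%, and the wt and KO#1 bars at 24 h reach 30.7% to 50.05%.

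The 6 RNAs of at most 423 bases (Rn7s1, Rn7s2, Rn7sk, Rmrp, Rpph1 and Terc) were set apart from Gm26917. The 6 small RNAs took 11.1% ± 4.06 of counts in wt at 0 h and 30.9% ± 8.99 at 24 h, 11.4% ± 2.82 and 33.9% ± 8.52 in KO#1, and 8.42% ± 3.62 and 7.398% ± 2.09 in KO#2 (SD, n = 3). The times did not overlap in wt or KO#1 (exact p = 0.1 each) and overlapped in KO#2 (exact p = 0.8). Gm26917 alone took 33.3%, 11.9% and 15.8% in wt at 0 h and 7.02%, 8.81% and 5.57% at 24 h, without overlap (exact p = 0.1). Its share was 16.4%, 20.2% and 2.65% in KO#1 at 0 h and 6.18%, 7.76% and 6.11% at 24 h (exact p = 0.4), and 10.5%, 1.88% and 7.61% in KO#2 at 0 h and 7.07%, 2.72% and 2.17% at 24 h (exact p = 0.5), so that the times overlapped in both clones. Gm26917 was the gene with most counts in 8 libraries, Rn7s1 in 7 and Rn7s2 in 3. Rn7s1, Rn7s2, Rn7sk, Gm26917, Rmrp and Rpph1 were among the 10 genes with most counts in all 18 libraries, Malat1 in 3, all KO#2 at 0 h, and Terc and Neat1 in 0.

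Per length of annotated RNA, levels in wt at 0 h were highest for Rn7s1 (131241 ± 64420 CPM per kilobase), followed by Rpph1 (95197 ± 18640), Gm26917 (62745 ± 44365), Rn7sk (50415 ± 19462), Rmrp (37128 ± 10443), Rn7s2 (28894 ± 2222), Terc (488 ± 236), Malat1 (213 ± 67.9) and Neat1 (5.26 ± 0.991). From Rn7s1 to Rn7s2, the means ± SD of each pair of neighbours overlapped, and Terc stood apart from Rn7s2 and Neat1 from Malat1 by far more than their SDs.

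From 0 h to 24 h, 8 of the 9 RNAs were called in wt (6 higher, 2 lower), where 50.7% of all tested genes were called. In KO#1 8 of 9 were called (6 higher, 2 lower) against 40.8% of all genes, and in KO#2 2 of 9 (both lower) against 26% of all genes. The 6 that rose in wt and KO#1 were the small RNAs, and the 2 that fell in all 3 lines were Malat1 and Neat1. The median log2 fold change of the 9 RNAs was 1.76 in wt, 2.00 in KO#1 and -0.55 in KO#2, beside 0.03, 0.00 and -0.03 for all tested genes.

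In KO#1 against wt, edgeR called 0 of the 9 RNAs at 0 h (6.67% of all genes) and 0 at 24 h (9.86%), 0 had an unadjusted p under 0.05 at either time, and DESeq2 called 0. Between KO#2 and wt, 5 of 9 were called at 0 h (2 higher and 3 lower in KO#2, with 38.1% of all genes called) and 9 of 9 at 24 h (2 higher and 7 lower, with 37.3%). The 5 calls became 3 without KO#2 0 h replicate 1 and 2 without KO#2 0 h replicate 3. Between KO#2 and KO#1, 3 of 9 were called at 0 h (2 higher and 1 lower in KO#2, with 26.4% of all genes called) and 8 of 9 at 24 h (2 higher and 6 lower, with 35.4%). Rn7s1 was among the lower calls at 0 h in both comparisons. Its sum with the identical copy Rn7s2 was not called by edgeR there (adjusted p = 0.335 against wt and 0.328 against KO#1). At 24 h the median log2 fold change of the 9 RNAs in KO#2 was -2.99 against wt and -3.22 against KO#1, beside 0.20 and 0.14 for all tested genes. The comparisons share libraries and are not independent of each other.

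An interaction term tested whether the 24 h response differed between lines. For KO#1 against wt, edgeR called 0 of the 9 RNAs (0.391% of all genes), 0 had an unadjusted p under 0.05, and DESeq2 called 0. For KO#2 against wt, edgeR called 0 (1.47% of all genes), and the 6 small RNAs had an unadjusted p under 0.05, with differences in log2 fold change from -1.67 ± 0.66 (Rpph1, adjusted p = 0.149) to -3.28 ± 0.91 (Rn7s2, adjusted p = 0.0725). DESeq2 called 5 of these (Rn7s1, Rn7s2, Rn7sk, Rmrp and Terc), at adjusted p from 0.00269 (Rmrp) to 0.0114 (Terc). With no filter on low counts edgeR also called 5, so that the call of a difference in response between KO#2 and wt depended on the test and on other settings.

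**Figure D2:**
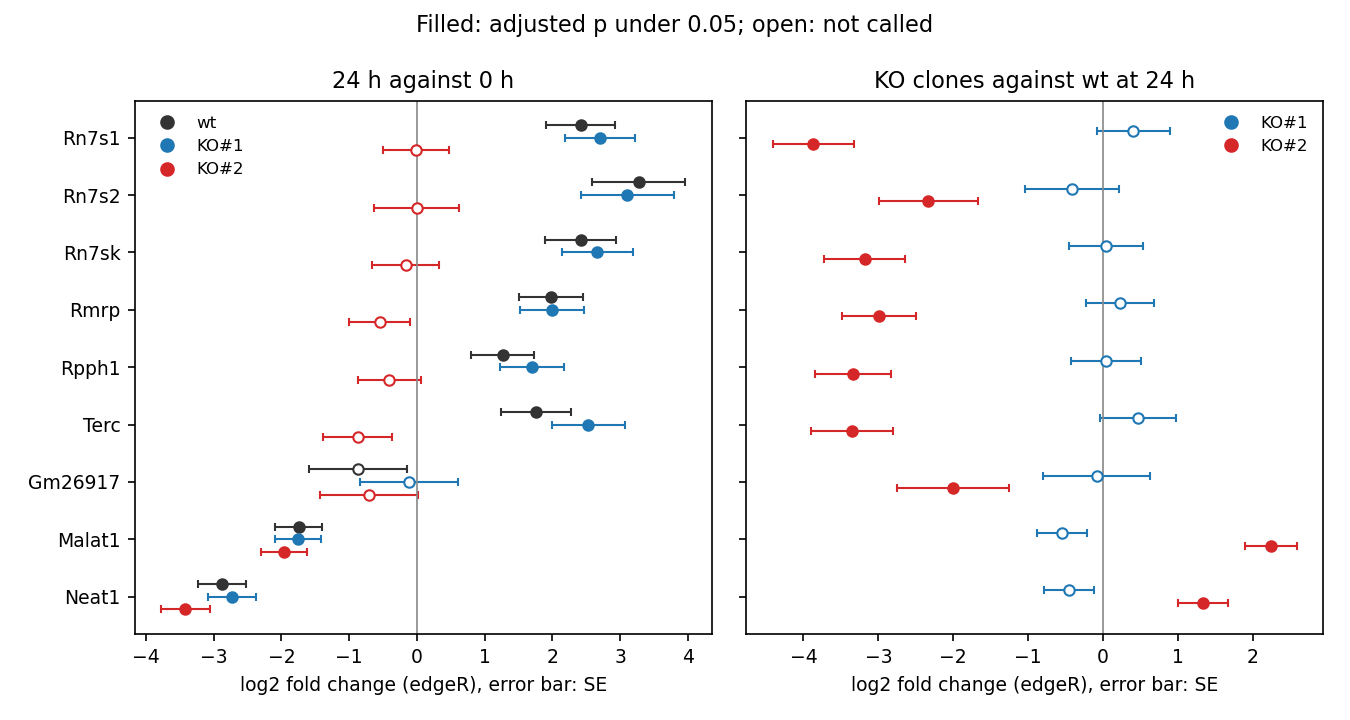
Log2 fold changes ± SE of the 9 RNAs from edgeR, for 24 h against 0 h in each line and for each KO clone against wt at 24 h, with filled symbols where the adjusted p was under 0.05. The 6 small RNAs lie at 1.27 to 3.28 in wt and at 1.70 to 3.11 in KO#1 from 0 h to 24 h, and at -2.34 to -3.87 for KO#2 against wt at 24 h.

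7SL RNA was higher in EpiLCs than in iPSCs of wt and KO#1. Rn7s1 stood at 18727, 57030.5 and 42360 CPM in wt at 0 h and at 163485, 307679 and 160801 CPM at 24 h. It stood at 30840, 36835 and 60394 CPM in KO#1 at 0 h and at 325703, 356344 and 153537 CPM at 24 h. The times did not overlap in either line, with a rise of 2.42 ± 0.51 in wt (edgeR, adjusted p = 0.000936) and 2.71 ± 0.52 in KO#1 (adjusted p = 0.000682). KO#2 libraries of Rn7s1 stood at 11265, 20768 and 11652 CPM at 0 h and at 9655, 17115 and 16466 CPM at 24 h, which overlapped (adjusted p = 0.988). At 24 h all KO#2 libraries were below all others, with a log2 fold change of -3.87 ± 0.55 against wt (14.6-fold lower, adjusted p = 5.99e-05) and -4.27 ± 0.56 against KO#1 (adjusted p = 3.93e-05).

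Rn7s2, the identical copy, stood at 8817, 9248 and 7940 CPM in wt at 0 h and at 51583, 174055 and 26768 CPM at 24 h. It went from 6163, 9758 and 6022 CPM to 29833.5, 132102 and 27488 CPM in KO#1. The times did not overlap in either line, and replicate 2 was highest in each of these 4 groups. The rise was 3.28 ± 0.69 in wt (adjusted p = 0.000875), or 2.14 without wt 24 h replicate 2 (adjusted p = 0.0096), and 3.11 ± 0.68 in KO#1 (adjusted p = 0.00188), or 1.96 without KO#1 24 h replicate 2 (adjusted p = 0.0206). KO#2 libraries held 10726, 25481 and 13817 CPM at 0 h and 10412, 19734 and 19829 CPM at 24 h, with overlap. KO#2 was lower than wt at 24 h (-2.34 ± 0.66, adjusted p = 0.0105), a call lost without wt 24 h replicate 2 (-1.22, adjusted p = 0.132) or KO#2 24 h replicate 1 (-2.08, adjusted p = 0.0502), and with library sizes alone (-1.08, adjusted p = 0.0585). It was lower than KO#1 at 24 h (-1.92 ± 0.65, adjusted p = 0.0285), a call lost under 7 of 17 alternatives, whose smallest difference was -0.67. Among them were the fits without KO#1 24 h replicate 2 (-0.80, adjusted p = 0.331) or without KO#2 24 h replicate 1 (-1.67, adjusted p = 0.106), replicate 2 (-2.06, adjusted p = 0.0573) or replicate 3 (-2.06, adjusted p = 0.0521).

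The split of 7SL counts between the identical copies set KO#2 apart. Rn7s2 took 48.8%, 55.1% and 54.3% of the summed counts in KO#2 at 0 h and 51.9%, 53.6% and 54.6% at 24 h. In wt it took 32.0%, 14.0% and 15.8% at 0 h and 24.0%, 36.1% and 14.3% at 24 h, and in KO#1 16.7%, 20.9% and 9.07% at 0 h and 8.39%, 27.0% and 15.2% at 24 h. All 6 KO#2 libraries were above all 12 others. The difference between KO#2 and wt was 32.1 points at 0 h and 28.6 points at 24 h (two-sided exact permutation test, p = 0.1 each, p = 0.225 adjusted over 9 comparisons). The authors quantified genes with Salmon/StringTie, and the treatment of reads that fit both genes by these tools is not given in the sources used here, so expression of the copies cannot be told apart from read assignment.

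**Figure D3:**
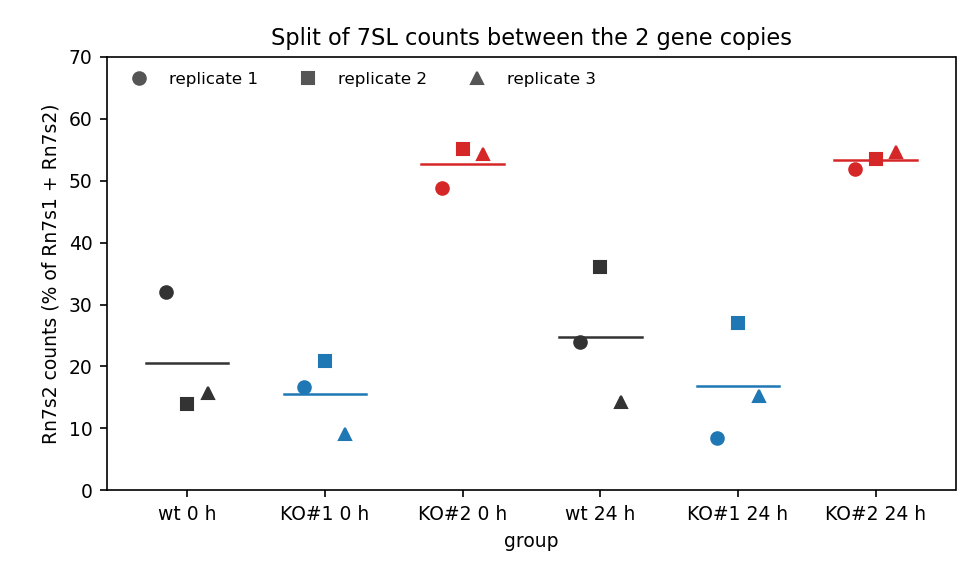
Rn7s2 counts as a percentage of Rn7s1 plus Rn7s2 counts in each library, with the symbol giving the replicate number. The 6 KO#2 libraries lie at 48.8% to 55.1%, and the 12 wt and KO#1 libraries at 8.39% to 36.1%.

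Summed as 1 feature, Rn7s1 plus Rn7s2 rose by 2.62 ± 0.53 in wt (adjusted p = 0.000689) and by 2.77 ± 0.54 in KO#1 (adjusted p = 0.00073), and was lower in KO#2 than in wt at 24 h (-3.25 ± 0.55, adjusted p = 0.000235). At 0 h the sum was not called in KO#2 against wt (-0.62 ± 0.50, adjusted p = 0.335) or against KO#1 (-0.68 ± 0.50, adjusted p = 0.328). Rn7s1 alone was called lower at 0 h against wt (-1.43 ± 0.50, adjusted p = 0.0307), with overlapping libraries, and against KO#1 (-1.55 ± 0.50, adjusted p = 0.0289). The first call was lost without wt 0 h replicate 2 (-1.07, adjusted p = 0.128) or replicate 3 (-1.38, adjusted p = 0.0734) and without KO#2 0 h replicate 1 (-1.28, adjusted p = 0.1) or replicate 3 (-1.29, adjusted p = 0.102). The second was lost without KO#1 0 h replicate 3 (-1.21, adjusted p = 0.102) and without KO#2 0 h replicate 1 (-1.39, adjusted p = 0.105) or replicate 3 (-1.41, adjusted p = 0.104).

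Genes for the proteins of the signal recognition particle and its receptor were called higher at 24 h for 6 of 9 in wt (50.7% of all genes called) and 5 of 9 in KO#1 (40.8%). In KO#2 edgeR called 0 of 9, 2 had an unadjusted p under 0.05, and DESeq2 called 2. Their median log2 fold change was 1.44, 0.96 and 0.31, beside 0.03, 0.00 and -0.03 for all genes. In wt, Srp54a, for the subunit that binds signal peptides, rose by 1.97 ± 0.45 (adjusted p = 0.0016) and Srp19, for an assembly subunit, by 1.56 ± 0.42 (adjusted p = 0.00512). Between KO#2 and wt at 24 h 1 of 9 was called, below the 37.3% of all genes, namely Srp9, for a subunit on the Alu domain of 7SL, which was lower (-1.41 ± 0.36, adjusted p = 0.0058), while Srp54a stood at -0.97 ± 0.43 (adjusted p = 0.0817).

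7SK RNA followed 7SL RNA. Rn7sk stood at 9389, 21580 and 19093 CPM in wt at 0 h and at 68020, 140141 and 59733 CPM at 24 h. It stood at 10128.5, 13306 and 19868 CPM in KO#1 at 0 h and at 89267, 135009 and 50237 CPM at 24 h. All 24 h libraries of both lines were above those at 0 h, with a rise of 2.42 ± 0.52 in wt (adjusted p = 0.00109) and 2.66 ± 0.53 in KO#1 (adjusted p = 0.000878). Levels in KO#2 were 8288, 17178.5 and 7623 CPM at 0 h and 5550, 11839 and 12093 CPM at 24 h, with overlap (adjusted p = 0.838). At 24 h KO#2 was below every wt library (-3.18 ± 0.54, adjusted p = 0.000244).

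The ratio of Rn7sk to summed 7SL counts varied little, from 0.251 to 0.380 over the 18 libraries. It was 0.349 ± 0.0278 in wt, 0.286 ± 0.0127 in KO#1 and 0.349 ± 0.0433 in KO#2 at 0 h, and 0.309 ± 0.0153, 0.268 ± 0.0150 and 0.310 ± 0.0298 at 24 h (SD, n = 3). KO#1 was below wt without overlap at both times (two-sided exact permutation test, p = 0.1 each, p = 0.225 adjusted over 9 comparisons).

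Of the 7 genes for the 7SK particle and P-TEFb, 2 rose and 2 fell in wt at 24 h, near the 50.7% of all genes called. Larp7, whose protein protects the 3′ end of 7SK, rose by 2.12 ± 0.28 (adjusted p = 1.44e-05), and Hexim1, whose protein inhibits P-TEFb when bound to 7SK, fell (-1.33 ± 0.28, adjusted p = 0.000812). In KO#1 2 rose and 1 fell (40.8% of all genes called), and in KO#2 1 rose (26% of all genes), Mepce, which encodes the enzyme that caps 7SK (1.08 ± 0.25, adjusted p = 0.0046). Against wt at 24 h, 2 of 7 were called, below the 37.3% of all genes, both higher in KO#2, namely Ccnt2 (0.83 ± 0.22, adjusted p = 0.00752) and Ccnt1 (0.67 ± 0.18, adjusted p = 0.00825), for cyclins of P-TEFb, and Larp7 stood at -0.66 ± 0.27 (adjusted p = 0.0594). At 0 h 6 of 7 were called between KO#2 and wt, above the 38.1% of all genes. Ccnt1, Ccnt2 and Larp7 (0.81 ± 0.27, adjusted p = 0.0265) were higher in KO#2, and Cdk9, Mepce and Hexim1 were lower.

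The RNase MRP RNA Rmrp stood at 6806, 11932.5 and 11447 CPM in wt at 0 h and at 34415, 61307 and 23665.5 CPM at 24 h. It stood at 9337, 10514.5 and 15062 CPM in KO#1 at 0 h and at 50289, 65149 and 23975 CPM at 24 h. Rmrp was higher in every 24 h library of both lines than at 0 h, with a rise of 1.98 ± 0.47 in wt (adjusted p = 0.00219) and 2.00 ± 0.47 in KO#1 (adjusted p = 0.00304). Without the libraries numbered 2 the call in KO#1 was lost (1.58, adjusted p = 0.0602). KO#2 libraries had 5747, 11354 and 4862 CPM at 0 h and 3509, 6500 and 4981 CPM at 24 h, with overlap (-0.55 ± 0.45, adjusted p = 0.401). At 24 h KO#2 was below every wt library (-2.99 ± 0.49, adjusted p = 0.000188).

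The RNase P RNA Rpph1 stood at 32367, 35057 and 23680 CPM in wt at 0 h and at 48854, 127757 and 42418 CPM at 24 h. All 24 h libraries were above those at 0 h, and the rise of 1.27 ± 0.47 was called (adjusted p = 0.0319), a call lost without wt 24 h replicate 2 (0.55, adjusted p = 0.337), wt 0 h replicate 1 (1.27, adjusted p = 0.0772) or wt 0 h replicate 3 (1.12, adjusted p = 0.114), and with library sizes alone (0.52, adjusted p = 0.257). In KO#1 it went from 18482, 28846 and 22151 CPM to 72448, 110177 and 42701 CPM, a rise of 1.70 ± 0.48 (adjusted p = 0.00923) that was lost without KO#1 24 h replicate 2 (1.30, adjusted p = 0.0577) and with library sizes alone (0.81, adjusted p = 0.0756). Levels in KO#2 were 6340, 15277 and 7165 CPM at 0 h and 6428, 7461 and 7794 CPM at 24 h. KO#2 was below every wt library at 0 h (-1.66 ± 0.48, adjusted p = 0.0121) and at 24 h (-3.34 ± 0.51, adjusted p = 0.00011). The call at 0 h was lost without KO#2 0 h replicate 1 (-1.43, adjusted p = 0.0557) or replicate 3 (-1.49, adjusted p = 0.054), and the value at 24 h was -2.66 without wt 24 h replicate 2 (adjusted p = 0.000683).

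Counts of Rpph1 were 3.25 ± 1.37 times those of Rmrp in wt at 0 h and 1.31 ± 0.188 times in KO#2 at 0 h (SD, n = 3), without overlap (two-sided exact permutation test, p = 0.1, p = 0.45 adjusted over 9 comparisons). At 24 h the ratio was 1.77 ± 0.333 in wt, 1.64 ± 0.176 in KO#1 and 1.51 ± 0.345 in KO#2, all overlapping.

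Genes for proteins of RNase P and RNase MRP numbered 12, as 2 identifiers are named Rpp14, and at 24 h 11 rose and 1 fell in wt. In KO#1 9 rose and 1 fell, and in KO#2 5 rose, with medians of 1.63, 1.203 and 0.76 in the 3 lines, beside 50.7%, 40.8% and 26% of all genes called. In wt, Pop1, which encodes the largest shared subunit, rose by 1.84 ± 0.30 (adjusted p = 8.75e-05), a gene named Rpp14 rose by 3.34 ± 0.58 (adjusted p = 0.000166), and Rpp25 fell (-2.36 ± 0.26, adjusted p = 2.48e-06). At 24 h 5 of 12 were called between KO#2 and wt, near the 37.3% of all genes, all lower in KO#2, with Pop4 at -2.22 ± 0.30 (adjusted p = 3.61e-05) and Rpp25l at -1.50 ± 0.27 (adjusted p = 0.000449), and Pop1 stood at -0.37 ± 0.28 (adjusted p = 0.311).

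Terc, far less abundant, moved like the other small RNAs. It stood at 153, 321 and 144 CPM in wt at 0 h and at 543, 1176 and 379 CPM at 24 h. It stood at 113, 222 and 164 CPM in KO#1 at 0 h and at 945, 1470 and 478 CPM at 24 h. Each 24 h library of Terc was above all 0 h libraries of its line, with a rise of 1.76 ± 0.52 in wt (adjusted p = 0.00925) and 2.53 ± 0.53 in KO#1 (adjusted p = 0.00138). The call in wt was lost without wt 24 h replicate 2 (1.12, adjusted p = 0.0925) and with library sizes alone (0.99, adjusted p = 0.0683). The KO#2 libraries had 130, 199 and 47.0 CPM at 0 h and 59.3, 79.0 and 66.8 CPM at 24 h, with overlap (-0.87 ± 0.51, adjusted p = 0.221). At 24 h KO#2 was below every wt library (-3.35 ± 0.55, adjusted p = 0.000198), or -2.75 without wt 24 h replicate 2 (adjusted p = 0.00141).

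Of the 8 genes for telomerase proteins, 6 rose and 1 fell in wt at 24 h, 4 rose and 1 fell in KO#1, and 5 rose and 1 fell in KO#2, with medians of 0.82, 0.66 and 0.81, beside 50.7%, 40.8% and 26% of all genes called. Tert, for the reverse transcriptase, fell in wt (-1.18 ± 0.35, adjusted p = 0.00986), KO#1 (-1.29 ± 0.36, adjusted p = 0.00835) and KO#2 (-1.19 ± 0.34, adjusted p = 0.0148). Nop10 and Nhp2, for proteins bound to the H/ACA part of Terc, rose in wt by 2.496 ± 0.41 (adjusted p = 0.000114) and 2.15 ± 0.32 (adjusted p = 4.46e-05). Both were lower in KO#2 than in wt at 24 h (Nop10 -1.92 ± 0.40, adjusted p = 0.00129, and Nhp2 -1.92 ± 0.32, adjusted p = 0.000195), as were 4 of the 8 genes in all, beside 37.3% of all genes called.

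Of 29 genes for RNA polymerase III and its factors, 18 rose and 3 fell in wt at 24 h, 12 rose and 2 fell in KO#1, and 8 rose in KO#2, with medians of 0.73, 0.55 and 0.57, beside 50.7%, 40.8% and 26% of all genes called. Polr3g, for a subunit typical of pluripotent cells, rose in wt by 2.46 ± 0.42 (adjusted p = 0.000149), Gtf3c6, for a subunit of TFIIIC, by 2.40 ± 0.39 (adjusted p = 9.98e-05) and Polr3a, for the largest subunit, by 1.01 ± 0.20 (adjusted p = 0.000499). In KO#2 Gtf3c6 rose by 1.87 ± 0.37 (adjusted p = 0.00125) and Polr3g by 1.53 ± 0.40 (adjusted p = 0.0085). At 24 h 7 of 29 were called between KO#2 and wt, below the 37.3% of all genes, 1 higher and 6 lower in KO#2, with Polr3gl at -2.02 ± 0.31 (adjusted p = 0.000122) and Polr3c at -1.20 ± 0.21 (adjusted p = 0.000295). At 0 h 13 of 29 were called between KO#2 and wt, beside 38.1% of all genes. Of these, Bdp1, Gtf3c3, Snapc3, Polr3b and Ssb were higher in KO#2 and the rest lower.

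Other small noncoding RNAs in the table were set beside the 6. Of the Y RNAs Rny1 and Rny3 and the vault RNA Vaultrc5, also made by RNA polymerase III, Rny3 (1.13 ± 0.44, adjusted p = 0.0404) and Rny1 (1.03 ± 0.42, adjusted p = 0.0487) rose in wt at 24 h. Both also rose in KO#1 (Rny3 1.47, adjusted p = 0.0144, and Rny1 1.64, adjusted p = 0.00587). All 3 were lower in KO#2 than in wt at 0 h (38.1% of all genes called) and at 24 h (37.3%), with Rny3 at -3.71 ± 0.49 (adjusted p = 3.16e-05) and Rny1 at -3.64 ± 0.46 (adjusted p = 2.5e-05) at 24 h. Of 65 tested small nuclear, nucleolar and Cajal body RNAs, 28 rose and 2 fell in wt at 24 h, 45 rose in KO#1 and 1 rose in KO#2, beside 50.7%, 40.8% and 26% of all genes called. The 30 of 65 called in wt lie near that share. KO#2 had 1 higher and 53 lower than wt at 24 h (37.3% of all genes called), with a median of -2.73 beside 0.20 for all genes.

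Gm26917 varied widely between replicates. It stood at 378504, 108785 and 139349 CPM in wt at 0 h, at 136134, 190631 and 22565 CPM in KO#1 and at 72664, 13497 and 52873 CPM in KO#2. At 24 h it stood at 98286, 173586 and 69557 CPM in wt, at 101305, 147758 and 72843 CPM in KO#1 and at 49616, 18768.5 and 16608 CPM in KO#2. The times overlapped in every line, and none of the 3 responses was called (wt -0.88 ± 0.72, adjusted p = 0.323). With library sizes alone the difference in wt was called (-1.51, adjusted p = 0.0419).

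KO#2 lay below every wt library of Gm26917 at 0 h (-2.17 ± 0.75, adjusted p = 0.0306) and at 24 h (-2.01 ± 0.75, adjusted p = 0.0419). The call at 0 h was lost without wt 0 h replicate 1 (-1.46, adjusted p = 0.152), KO#2 0 h replicate 2 (-1.73, adjusted p = 0.103) or KO#2 0 h replicate 3 (-2.27, adjusted p = 0.0662). The call at 24 h was lost without wt 24 h replicate 1 (-2.11, adjusted p = 0.0587) or replicate 2 (-1.57, adjusted p = 0.14) or KO#2 24 h replicate 2 (-1.78, adjusted p = 0.135) or replicate 3 (-1.73, adjusted p = 0.123), and with library sizes alone (-0.84, adjusted p = 0.216), while it was -2.68 without KO#2 24 h replicate 1 (adjusted p = 0.0287). Against KO#1 at 24 h the difference missed the threshold (-1.92 ± 0.74, adjusted p = 0.0518) and was called under 7 of 17 alternatives, among them DESeq2 (-1.94, adjusted p = 0.0133) and the fit without KO#2 24 h replicate 1 (-2.60, adjusted p = 0.0335).

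Gm26917 ends 616 bases before Gm42418, which the table names Yam1. Across the 18 libraries, which share their totals, the count shares of these neighbours correlated with Pearson's r = 0.769. Gm42418 took 1.78% ± 1.17 of counts in wt and 0.315% ± 0.128 in KO#2 at 0 h, and 1.48% ± 0.359 and 0.408% ± 0.131 at 24 h (SD, n = 3). The log2 fold change of KO#2 against wt was -3.07 ± 0.64 at 0 h (adjusted p = 0.00184) and -3.02 ± 0.64 at 24 h (adjusted p = 0.00156) for the identifier of Gm42418, the more abundant of 2 named Yam1. The other identifier was called in the opposite direction at both times (adjusted p = 0.0366 at 0 h, 0.0217 at 24 h), with 0 counts in all wt libraries and 0 to 122 and 0 to 206 CPM in KO#2 libraries. Reads on ribosomal sequence were discarded before counting, and the part of leftover ribosomal RNA in these 2 genes was not tested.

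**Figure D4:**
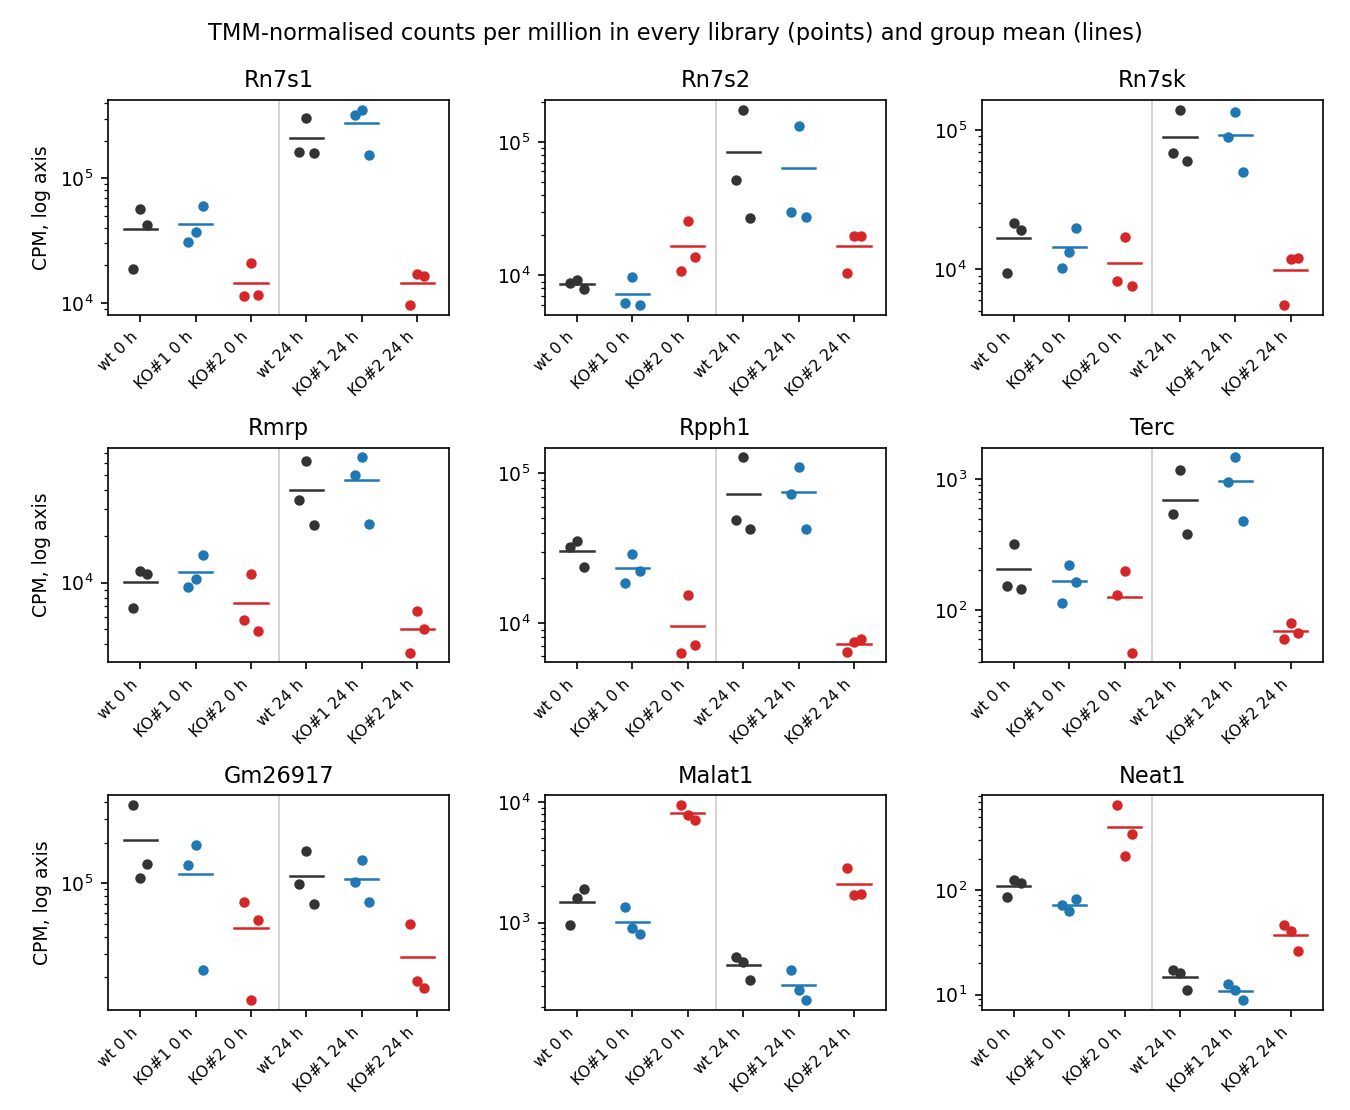
CPM (TMM, log axis) of each of the 9 RNAs in each of the 18 libraries, 1 panel per RNA. In the panels of the 6 small RNAs, the wt and KO#1 libraries at 24 h lie above all others, while Malat1 and Neat1 lie lower at 24 h than at 0 h in each line.

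Malat1 and Neat1 went the other way. Malat1 stood at 961, 1613 and 1884 CPM in wt at 0 h and at 520, 476 and 332 CPM at 24 h, and in KO#1 at 1347, 898 and 807 CPM and at 402, 278 and 227 CPM. In KO#2 it stood at 9421, 7812 and 7147 CPM at 0 h and at 2865, 1680 and 1721 CPM at 24 h. Malat1 was lower in every 24 h library than in any 0 h library of its line, and fell in wt (-1.75 ± 0.34, adjusted p = 0.000491), KO#1 (-1.75 ± 0.34, adjusted p = 0.000784) and KO#2 (-1.96 ± 0.34, adjusted p = 0.000512). KO#2 was above every wt library at 0 h (2.45 ± 0.35, adjusted p = 0.000108) and at 24 h (2.24 ± 0.35, adjusted p = 0.000127).

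Neat1 stood at 86.2, 126 and 116 CPM in wt at 0 h and at 17.3, 16.2 and 11.1 CPM at 24 h, and in KO#1 at 72.3, 62.6 and 81.4 CPM and at 12.7, 11.04 and 8.83 CPM. In KO#2 it stood at 649, 211 and 343 CPM at 0 h and at 46.1, 40.3 and 26.2 CPM at 24 h. All 24 h libraries of Neat1 were below those at 0 h in each line, and it fell in wt (-2.88 ± 0.35, adjusted p = 7.75e-06), KO#1 (-2.73 ± 0.35, adjusted p = 2.58e-05) and KO#2 (-3.42 ± 0.36, adjusted p = 4.53e-06). KO#2 was above every wt library at 0 h (1.87 ± 0.34, adjusted p = 0.000641) and at 24 h (1.34 ± 0.34, adjusted p = 0.00503). At 0 h every KO#1 library of Neat1 was below every wt library, a difference that was not called (-0.60 ± 0.33, adjusted p = 0.33).

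Counts of Malat1 were 13.4 ± 2.59 times those of Neat1 in wt at 0 h and 29.7 ± 0.377 times at 24 h, 14.3 ± 4.35 and 27.5 ± 3.61 times in KO#1, and 24.1 ± 11.6 and 56.5 ± 13.0 times in KO#2 (SD, n = 3). The times did not overlap in any line (two-sided exact permutation test, p = 0.1 each, p = 0.18 adjusted over 9 comparisons). The summed fibroblast markers were also lower at 24 h in each line, without overlap (exact p = 0.1 each). At 24 h 6 of the 8 markers were lower and 1, Dcn, was higher in wt (50.7% of all genes called) and in KO#1 (40.8%), and 3 were lower in KO#2 (26%). Between KO#2 and wt 4 of the 8 were higher in KO#2 at 0 h (38.1% of all genes called) and 6 at 24 h (37.3%), and the sums overlapped at 0 h (exact p = 0.3) and did not at 24 h (exact p = 0.1). In KO#1 at 24 h the summed markers were above wt without overlap (43.1 ± 7.55 against 27.0 ± 7.76 CPM, exact p = 0.1, n = 3). There edgeR called neither Malat1 (-0.55 ± 0.33, adjusted p = 0.373) nor Neat1 (-0.45 ± 0.34, adjusted p = 0.499), and their libraries overlapped with wt. The part of feeder cells in the levels of Malat1 and Neat1 was not tested.

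Of the paraspeckle protein genes, Nono rose (1.25 ± 0.31, adjusted p = 0.00274) and Sfpq fell (-0.83 ± 0.27, adjusted p = 0.0159) in wt at 24 h. Sfpq was not called in KO#1 (-0.67 ± 0.27, adjusted p = 0.0533) or KO#2 (-0.33 ± 0.27, adjusted p = 0.389). Of 5 nuclear speckle genes, 2 rose and 1 fell in wt at 24 h, near the 50.7% of all genes called, with Srrm2, for a core speckle protein, at -2.18 ± 0.52 (adjusted p = 0.00239) and Srsf3, for a splicing factor, at 1.53 ± 0.42 (adjusted p = 0.0056). Son, for another core speckle protein, stood at -0.27 ± 0.22 (adjusted p = 0.315) there and was the 1 gene of these 5 called between KO#2 and wt at 24 h (37.3% of all genes), higher in KO#2 (1.09 ± 0.22, adjusted p = 0.00103).

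Scaling of all other genes differed with and without the 9 RNAs. Across 18 libraries, whose shares have a common total, the share of the 9 RNAs and that of protein-coding genes had r = -0.998, and the share of the 6 small RNAs and the TMM factor had r = -0.893. The share of Gm26917 and the TMM factor had r = -0.144. TMM factors were 1.03 ± 0.135 in wt, 1.15 ± 0.0787 in KO#1 and 1.43 ± 0.0290 in KO#2 at 0 h, and 0.674 ± 0.151, 0.658 ± 0.162 and 1.40 ± 0.0756 at 24 h (SD, n = 3). They spanned 0.507 to 1.45, and 0.707 to 1.26 when the 9 RNAs were left out.

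With library sizes alone, the median log2 fold change of all tested genes was -0.58 in wt and -0.78 in KO#1 from 0 h to 24 h and 1.24 in KO#2 against wt at 24 h. With the 9 RNAs left out of the totals these medians were -0.44, -0.45 and 0.75, and with TMM 0.03, 0.00 and 0.20. Between KO#2 and wt at 24 h, 10208 genes were called with library sizes alone (94.8% of them higher), 7934 without the 9 RNAs in the totals (84.7% higher) and 6197 with TMM (57.1% higher). In wt from 0 h to 24 h the counts were 7432 (21.4% higher), 8204 (29.2%) and 8429 (51.3%).

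**Figure D5:**
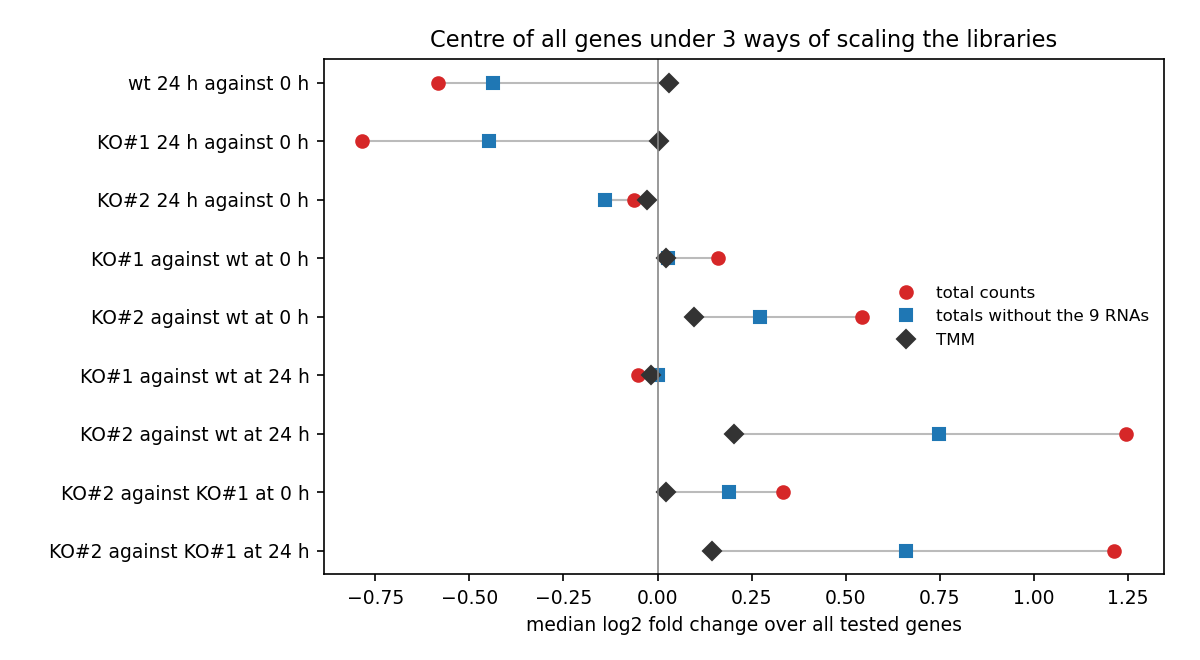
Median log2 fold change of all tested genes in 9 comparisons when libraries are scaled by total counts, by totals without the 9 RNAs, and by TMM. For KO#2 against wt at 24 h the median is 1.24, 0.75 and 0.20, and for KO#1 from 0 h to 24 h it is -0.78, -0.45 and 0.00.

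Levels of the RNAs (log2 CPM) were compared with each other and with all other genes of sufficient level across the 18 libraries, which share their scaling and group differences. The correlation was 0.974 between Rn7s1 and Rn7sk, 0.979 between Rn7s1 and Rmrp, 0.683 between Rn7s1 and Rn7s2, 0.899 between Malat1 and Neat1 and -0.849 between Rn7s1 and Malat1. Of 10707 genes, those most like Rn7s1 were Gm22154, a small nucleolar RNA (r = 0.988), and Rps27, a ribosomal protein gene (r = 0.988). Those most like Rn7sk were Gm25395 (r = 0.983) and Hist1h4a (r = 0.982), and most like Rn7s2 were Sf3a3 (r = 0.889) and Gnl2 (r = 0.888). Snora78 and Rplp1 were closest to both Rmrp (r = 0.974 and 0.973) and Terc (r = 0.966 and 0.957), and Hist1h3e (r = 0.974) and Hist1h3c (r = 0.971) to Rpph1. Mdm4 (r = 0.978) and Chd2 (r = 0.9701) were closest to Malat1, Ankrd12 (r = 0.978) and Fut9 (r = 0.964) to Neat1, and Sf3a2 (r = 0.872) and Ints9 (r = 0.866) to Gm26917.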

How the data were processed

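Total RNA libraries were prepared with a stranded kit and read as pairs of 75 bases. The authors trimmed reads, discarded those on ribosomal sequence, mapped the rest to GRCm38 with STAR, marked duplicates with Picard and quantified genes with Salmon/StringTie in the nf-core rnaseq pipeline. The deposited table holds counts per gene, whole numbers that are not normalized; annotation release, and the settings these tools used for strand and for reads that fit several genes, are not given in the sources used here. Genes with a minimum count of 10 by edgeR's filterByExpr were tested (16619 of 45706) by edgeR 4.0.16 (R 4.3.3) with quasi-likelihood tests, TMM factors, all 6 groups in 1 fit (common dispersion 0.0970) and no covariates. DESeq2 1.42.0 was an alternative. The authors' own fold changes were not used. For shares and ratios, exact permutation tests of 3 against 3 libraries were run, two-sided (20 splits). Positions and sequences came from GENCODE M21, which matched 45143 of 45706 identifiers. No 2 of the 18 libraries held identical values (153 pairs). The p-values measure the spread between libraries numbered as biological replicates. Depth limits each value through counting error, which was small for these RNAs (at least 108 counts in any library).

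The members, gene lists and tests were chosen with earlier results of these data known. Named genes are the 9 RNAs, the 2 genes with an average log2 CPM of at least 2 (prior count 2) most correlated with each, and, from each list, the genes with the largest change among those called (at most 2) and its first partner. Some named list genes, such as Mepce, Sfpq, Polr3g in KO#2, Tert in KO#1 and Gm42418, were chosen after their values were seen. On simulated counts for wt 24 h against 0 h (15707 genes), the test recovered 49% of 2-fold and 100% of 4-fold changes, with 6 false calls. The simulated counts had a fixed dispersion below the fitted one (0.0970) and 1 profile shared by all groups. Changes were planted only in genes above a mean count. These percentages are therefore not the power of the test in the present libraries. Alternatives were DESeq2, other size factors, library sizes alone, totals without the 9 RNAs or from protein-coding genes, other filters, only the groups compared, a replicate block and leaving out each library. Leaving out the libraries numbered 2, TMM factors and totals without Gm26917, and the sum of Rn7s1 and Rn7s2 were added after seeing the data. Some items of the gene lists and sequences are not reported here.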

Additional observations from a re-analysis of the deposited data

How the results depend on the processing

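Of 43 called values of the 9 RNAs, all 43 kept their direction under every alternative run, 34 kept the call under every alternative that used all libraries, 36 under every scaling and 33 in every fit that left out 1 library. The number of RNAs called in KO#2 against wt at 0 h was 5, and 3 with at least 10 counts in every library, 3 without the libraries numbered 2 and 2 to 4 with 1 library left out. In KO#2 against KO#1 at 0 h it was 3, and 6 with no filter on low counts. For the response of KO#2 minus that of wt it was 0, and 1 with library sizes alone, 5 with DESeq2, 5 with no filter, 1 with at least 10 counts in every library, 5 with a replicate block and 0 to 1 with 1 library left out. Replicate numbers were not taken to pair the libraries. Deviations of libraries with the same number correlated at a mean r of 0.0531 (over 0.1 in 16 of 45 pairs), against -0.0266 for different numbers. As a hint of pairing from the data, 11 of 18 libraries correlated best with their own number. Replicate 2 had the highest Rn7s2 share of all counts in 6 of 6 groups. It had the highest Rn7s2 percentage of Rn7s1 plus Rn7s2 in 4 of 6 groups. Names of the deposited count columns also carry the replicate number across all 6 groups, and whether it pairs the libraries is not given. Neat1 in the response of KO#2 minus wt was -0.54, and 0.0967 with library sizes alone. The difference in summed share in wt from 0 h to 24 h was 6.44 points, and -6.73 without Rn7s1 and Rn7s2. In KO#1 against wt it was -7.01 points at 0 h, and 0.223 without Gm26917, and 2.60 points at 24 h, and -1.99 to 8.61 with 1 library left out. The median of all genes with library sizes alone in KO#1 from 0 h to 24 h was -0.78, and -0.45 without the 9 RNAs in the totals and -1.05 to -0.63 with 1 library left out. Without the 9 RNAs it went from 0.54 to 0.27 in KO#2 against wt at 0 h, from 1.24 to 0.75 at 24 h, from 0.33 to 0.19 in KO#2 against KO#1 at 0 h (0.24 without Gm26917 alone, and 0.29 to 0.45 with 1 library left out) and from 1.21 to 0.66 at 24 h (1.07 to 1.5005 with 1 library left out). Changes of the median without the 9 RNAs follow from the totals themselves, and the cause of the others was not tested.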
